A study of Homo sapiens with 3 samples.

Results

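The expression of 9 S100 genes (S100A2, S100A4, S100A6, S100A8, S100A9, S100A10, S100A11, S100A14 and S100P) and of LCN2, which encodes lipocalin-2, was examined in A549 cells after exposure to cordycepin or cordyceps. A549 is an established line from a human lung adenocarcinoma. One culture condition received 0.1% DMSO as the vehicle control, one received 60 μg/mL cordycepin, an adenosine analog, and one received 100 μg/mL cordyceps, each for 48 h, and the labels say no more about the cordyceps material. According to the labels the medium of all 3 conditions held nicotinamide, troglitazone and zinc sulfate besides serum and antibiotics, and whether the treated cells also received DMSO is not given. RNA of each condition was hybridized to 1 Agilent one-colour array, so each group is a single array (n = 1) and no difference has a replicate error or a p-value. The 10 genes were given by name, and their probes were found by matching the accession of each array probe to RefSeq transcripts. They were read by 11 probes, S100A11 by 2 and every other gene by 1, out of 58201 probes and 22439 named genes on the array. S100A9 and LCN2 also stand in the lists of upregulated genes that the study drew from the same arrays, so their direction with cordycepin is not independent of those lists.

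S100 proteins are small calcium-binding proteins with paired EF-hand motifs, most of which act as dimers. Inside the cell they bind target proteins such as annexins, and some are released and act on surface receptors, among them AGER and TLR4. S100A8 and S100A9 form calprotectin, which withholds zinc and manganese from microbes, and lipocalin-2 withholds iron by binding bacterial siderophores. Calprotectin is abundant in neutrophils, and together with lipocalin-2 it is also made by epithelia under inflammatory stimuli.

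Because LCN2, S100A8 and S100A9 were the members that passed 2-fold with cordycepin, the 250 bases before their transcription start sites are shown first. They come from the RefSeq promoter table on GRCh38.p14 and are written 5′ to 3′ on the strand of the gene, with matches to the motifs searched in capitals. For LCN2 the stretch is chr9:128149203-128149452 on the plus strand, for S100A8 it is chr1:153391074-153391323 on the minus strand, and for S100A9 it is chr1:153357604-153357853 on the plus strand. S100A8 has 3 overlapping windows in the table, and the one with TATAAA nearest to its start site was printed.

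LCN2: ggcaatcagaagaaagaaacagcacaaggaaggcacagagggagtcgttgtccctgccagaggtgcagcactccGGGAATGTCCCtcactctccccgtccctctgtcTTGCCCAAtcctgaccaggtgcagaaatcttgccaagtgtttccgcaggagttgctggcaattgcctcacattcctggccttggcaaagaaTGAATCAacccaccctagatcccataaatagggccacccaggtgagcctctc
S100A8: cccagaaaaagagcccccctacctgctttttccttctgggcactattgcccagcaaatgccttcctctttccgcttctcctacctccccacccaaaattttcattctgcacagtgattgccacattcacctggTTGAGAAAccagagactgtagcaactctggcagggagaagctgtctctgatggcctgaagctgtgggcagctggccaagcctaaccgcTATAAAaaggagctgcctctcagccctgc
S100A9: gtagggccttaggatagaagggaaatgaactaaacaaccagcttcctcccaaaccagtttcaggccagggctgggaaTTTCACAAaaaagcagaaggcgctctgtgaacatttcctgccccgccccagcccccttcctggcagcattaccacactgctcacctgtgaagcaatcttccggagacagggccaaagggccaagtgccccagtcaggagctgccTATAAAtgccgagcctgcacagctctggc

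The motifs were searched on both strands as a kappaB pattern (GGGNNNNNCC), an AP-1 pattern (TGANTCA), a C/EBP pattern (TTNNGNAA) and the TATA box (TATAAA), where N is any base. In the LCN2 stretch the kappaB pattern began at -176 and, on the other strand, at -175, so that the matches overlap, with a C/EBP match at -143 and an AP-1 match at -52. The S100A8 and S100A9 stretches each held TATAAA at -29 and a C/EBP match, at -117 for S100A8 and at -173 for S100A9, and neither held the kappaB or AP-1 pattern. The S100A8 window was picked by its TATAAA, so this likeness to S100A9 depends on that choice. Another S100A8 window held TATAAA at -126 with kappaB and C/EBP matches, and the remaining one held none of the patterns. Positions count back from the transcription start site. Over all 35116 promoter windows of the same length, 54.4% held the kappaB pattern, 6.57% the AP-1 pattern, 33.2% the C/EBP pattern and 10.7% TATAAA. The 10 genes have 13 windows in the table, of which 9 held the kappaB pattern, 7 the C/EBP pattern, 5 TATAAA and 2 the AP-1 pattern. These window counts are the like measure for the shares above. The counts of genes that follow take a match in any window of a gene. The kappaB pattern was found for 8 of the genes, all but S100A9 and S100P (for S100A8 in another of its windows than the one printed), and the C/EBP pattern for 6. TATAAA was found for 4 genes (S100A4, S100A8, S100A9 and S100P) and the AP-1 pattern for LCN2 and S100A2. These are matches of letters and show no binding.

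All 11 probes were well above background on all 3 arrays, and none was saturated or flagged as an outlying spot. Signals below are the processed intensities of the scanner software with the error that its error model assigns, which covers 1 spot on 1 array. Ratios were taken after dividing each array by its 75th percentile, which was 260.1 for the control, 224 for cordycepin and 260.2 for cordyceps. As a second guide to precision, the brightest probes of 3356 genes with several probes were compared in pairs. The spread of a single probe's log2 ratio, scaled from the median absolute difference, was 0.25 for cordycepin and 0.20 for cordyceps. This measure gives little weight to the widest pairs. Of the pairs, 5.66% with cordycepin and 3.81% with cordyceps were at least 1 log2 unit apart. A gene was counted as higher or lower when it differed by at least 2-fold, which is a rule of size and not a test. Both comparisons share the control array, so an error of that array enters both. The lower right corner of the arrays, rows above 240 of 384 and columns above 82 of 164, differed from the rest on the cordyceps array. There 14.6% of probes were at least 2-fold higher with cordyceps, against 2.80% elsewhere, and 11.2% of spots had an outlying local background, against 0 on the control and cordycepin arrays. With cordycepin the shares of higher probes were 6.27% in the corner and 7.26% elsewhere. The probes of S100A4 and S100A9 and 1 of the 2 probes of S100A11 lie in this corner.

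**Figure D1:**
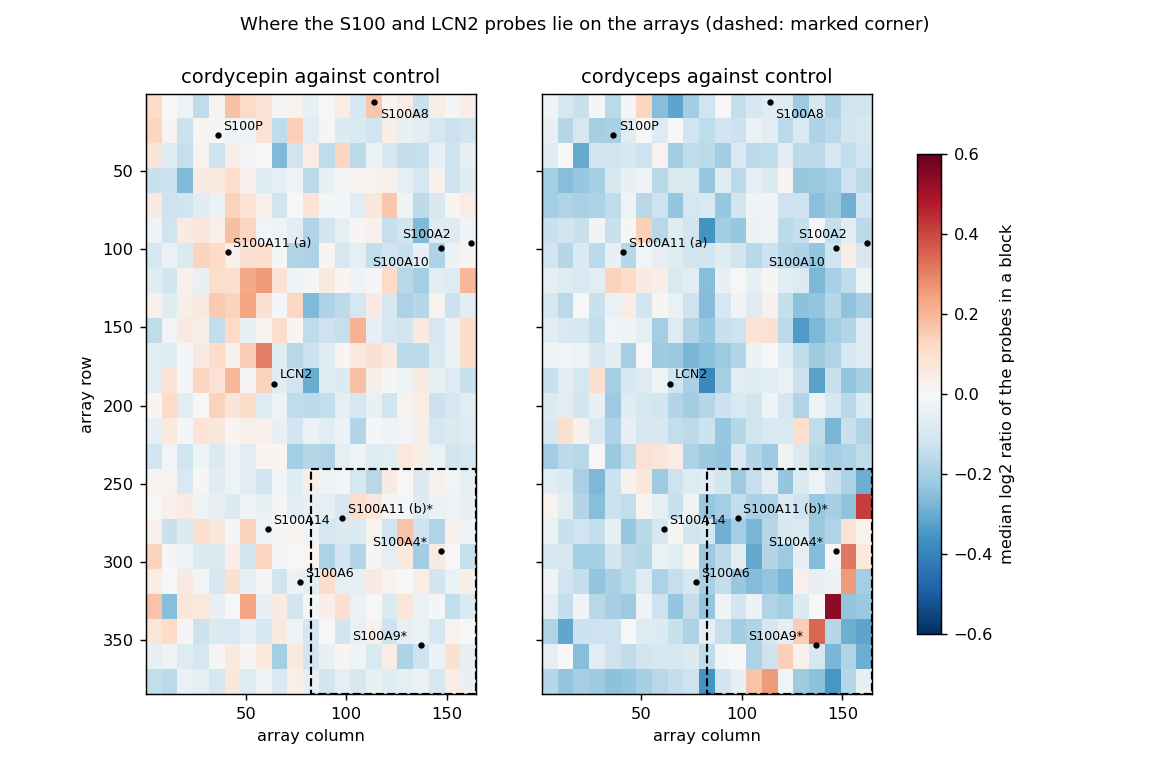
Map of the array surface (row against column), coloured by the median log2 ratio to the control array in blocks of neighbouring probes, for cordycepin (left) and cordyceps (right); dots are the probes of the 10 genes, S100A11 (a) and (b) are its 2 probes, and the dashed box is the marked corner. Blocks of raised ratio run across the corner for cordyceps, close to the probes of S100A9 and S100A4, and no such band is seen for cordycepin.

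LCN2, S100A8 and S100A9, that is 3 of these 10 genes, were higher with cordycepin by 2-fold or more, and 0 were lower by as much. Among all 15917 named genes tested, 5.95% were that much higher and 3.57% that much lower. The 10 genes were chosen with earlier results of these data known, so setting their counts beside such shares is no test of the family. The median log2 ratio of the 10 genes was 0.22, against -0.05 over the 14600 named genes measured on both arrays, and 7 of the 10 lay above 0. With cordyceps, 2 of 10 were at least 2-fold higher (LCN2 and S100A9), against 4.19% of 15602 named genes, and 1 was at least 2-fold lower (S100A4), against 3.15%. The median with cordyceps was -0.00, against -0.11 over 13889 named genes, with 5 genes above 0 and 5 below. The choice of scaling matters for small ratios, since scaling to the median moved every log2 ratio by -0.26 for cordycepin and by 0.27 for cordyceps. Under median scaling S100A10, S100A11 and S100P fell below 0 with cordycepin, and S100A11 and S100A14 rose above 0 with cordyceps. The counts of genes above and below 0 thus depend on the scaling, and the share of all named genes above 0 was not computed.

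**Figure D2:**
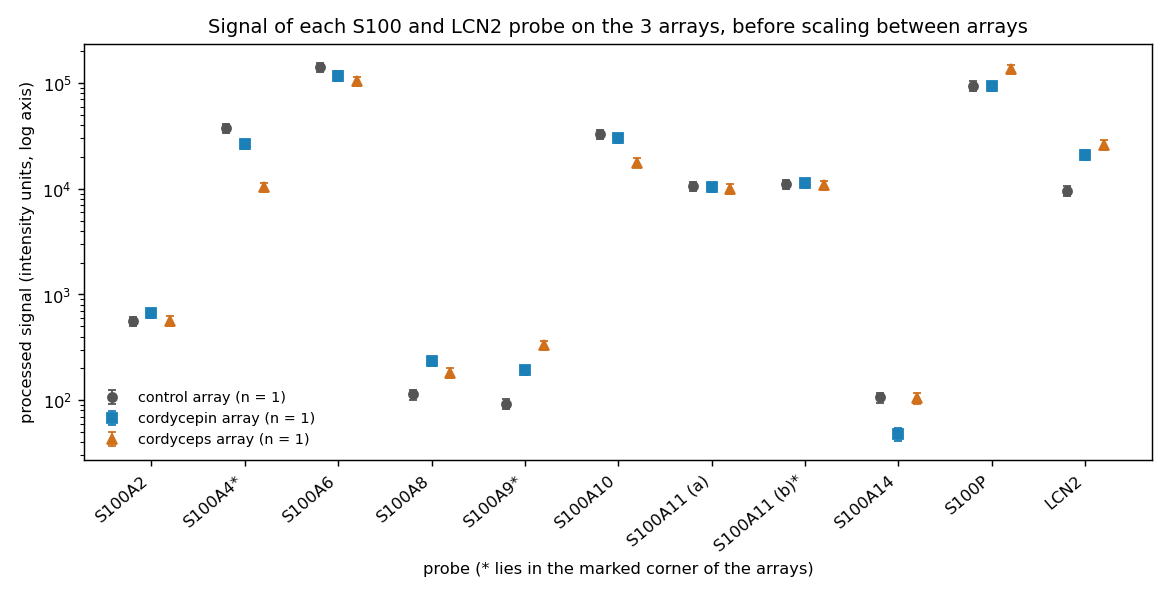
Processed signal (intensity units, log axis) of each of the 11 probes on the control, cordycepin and cordyceps arrays (1 array each) before scaling, with the error from the scanner software's error model. LCN2 is higher on both treated arrays and S100A4 and S100A10 are lower on the cordyceps array; heights of different probes are not comparable.

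The secreted antimicrobial proteins came first. LCN2 had signals of 9568 ± 957 (control), 21019 ± 2102 (cordycepin) and 26032 ± 2603 (cordyceps). After scaling it was 2.55-fold higher with cordycepin (log2 ratio 1.35 ± 0.20, error model) and 2.72-fold higher with cordyceps (1.44 ± 0.20). Both treated arrays were thus high and close to each other, their own log2 ratio being 0.09 ± 0.20. Of the named genes measured on both arrays, 1.99% were as high or higher with cordycepin and 1.41% with cordyceps. The LCN2 probe lies outside the corner, and the gene stayed at least 2-fold higher in 12 of 12 alternative ways of processing in each comparison. Its log2 ratios ran from 1.09 to 1.47 for cordycepin and from 1.44 to 1.71 for cordyceps. Some alternatives, such as the detection rules and the median over probes, cannot change the value of a gene with a single detected probe. Here and below, counts of alternatives include them.

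S100A8, the calprotectin subunit paired with S100A9, had signals of 114 ± 12.3 (control), 235 ± 24.04 (cordycepin) and 182 ± 20.05 (cordyceps). It was 2.39-fold higher with cordycepin (log2 ratio 1.26 ± 0.21), a value reached by 2.33% of named genes. With cordyceps its log2 ratio was 0.68 ± 0.22, or 1.60-fold, which is above the single-probe spread and under the 2-fold rule. The probe is outside the corner. With cordycepin the log2 ratio was 0.90 after normexp background correction and 0.995 after median scaling, both under 2-fold, and it stayed at or above 2-fold in 10 of 12 alternatives. The local background around its spot was marked as outlying on the control array.

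S100A9 had signals of 92.1 ± 10.3, 192 ± 19.97 and 330 ± 33.99 on the control, cordycepin and cordyceps arrays. It was 2.42-fold higher with cordycepin (log2 ratio 1.28 ± 0.22). With cordyceps the ratio was 3.58-fold (1.84 ± 0.22), a value reached by 0.835% of named genes. This probe lies in the corner described above, and its local background read 42 with DMSO, 43 with cordycepin and 52, marked as outlying, with cordyceps. The 189 measured probes within 10 rows and columns of it had a median cordyceps log2 ratio of 0.13, and their 90th percentile was 2.08, above the value of S100A9. Relative to that local median S100A9 was at 1.71, and after normexp correction it was at 1.27 for cordyceps and 0.84 for cordycepin. How much of the cordyceps value comes from the position on the array was not tested, and the gene has no probe elsewhere. The cordycepin value rests on arrays without such a band, and the 195 neighbouring probes had a median of -0.07 there.

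The intracellular S100 genes with annexin or cytoskeletal targets gave other values. S100A4, which binds non-muscle myosin and is linked to cell motility, had signals of 37193 ± 3719, 26257 ± 2626 and 10305 ± 1030 on the control, cordycepin and cordyceps arrays. It was 3.61-fold lower with cordyceps (log2 ratio -1.85 ± 0.20), and 0.158% of named genes were as low or lower. With cordycepin its log2 ratio was -0.29 ± 0.20. The probe lies in the corner, where its 165 neighbours had a median of -0.14, a 10th percentile of -0.70 and a 90th percentile of 1.88. Of the corner probes 2.86%, and of the others 3.29%, were at least 2-fold lower with cordyceps. The part of the array position in the S100A4 value was not tested, and the gene has no probe outside the corner. Less the local median it was -1.71, and over 11 alternatives the cordyceps ratio ran from -1.85 to -1.58.

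S100A10, the partner of annexin A2 in a membrane-bound tetramer, had signals of 32748 ± 3275 (control), 30196 ± 3020 (cordycepin) and 17727 ± 1773 (cordyceps). The cordyceps array was the low one, with a log2 ratio of -0.89 ± 0.20 (1.85-fold lower), short of the 2-fold rule. Over 12 alternatives the ratio was -0.95 to -0.62. With cordycepin it was 0.10 ± 0.20 and turned to -0.17 under median scaling. Annexin A2 itself (ANXA2) read 75695, 54716 and 46278, with log2 ratios of -0.25 and -0.71. A second ANXA2 probe gave -0.39 and 0.03, so its probes disagreed with cordyceps.

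S100A6, known as calcyclin, read 141093, 117419 and 103603 on the control, cordycepin and cordyceps arrays, with log2 ratios of -0.05 for cordycepin (0.01 after quantile normalization) and -0.45 for cordyceps. S100A11, an annexin A1 partner, has 1 probe on each side of the corner's edge, and the 2 agreed. The probe outside read 10534, 10292 and 10019 (log2 ratios 0.18 and -0.07), and the one inside read 11071, 11305 and 10844 (0.24 and -0.03). All 4 ratios were within the error of 0.20 or just above it, and their signs turned under median scaling for the brighter probe, to -0.02 and 0.24.

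S100A14, a membrane-associated S100 protein of epithelia, had signals of 106 ± 11.4, 47.6 ± 6.76 and 105 ± 12.97. Only the cordycepin array was low among the 3, with a log2 ratio of -0.95 ± 0.26 (1.93-fold lower), while cordyceps gave -0.02 ± 0.24. The cordycepin value depended on the processing: it was -1.21 under median scaling, -1.07 under quantile normalization and -1.16 without scaling, all past 2-fold, and -0.37 after normexp correction. S100A2, a p53-responsive gene of squamous epithelia, read 557, 663 and 564 (log2 ratios 0.47 ± 0.20 and 0.02 ± 0.21). S100P, an AGER ligand found in many carcinomas, read 94509, 93259 and 135780. Its log2 ratio was 0.52 ± 0.20 with cordyceps (1.44-fold, reached by 8.95% of named genes) and 0.19 ± 0.20 with cordycepin, the latter turning to -0.07 under median scaling.

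**Figure D3:**
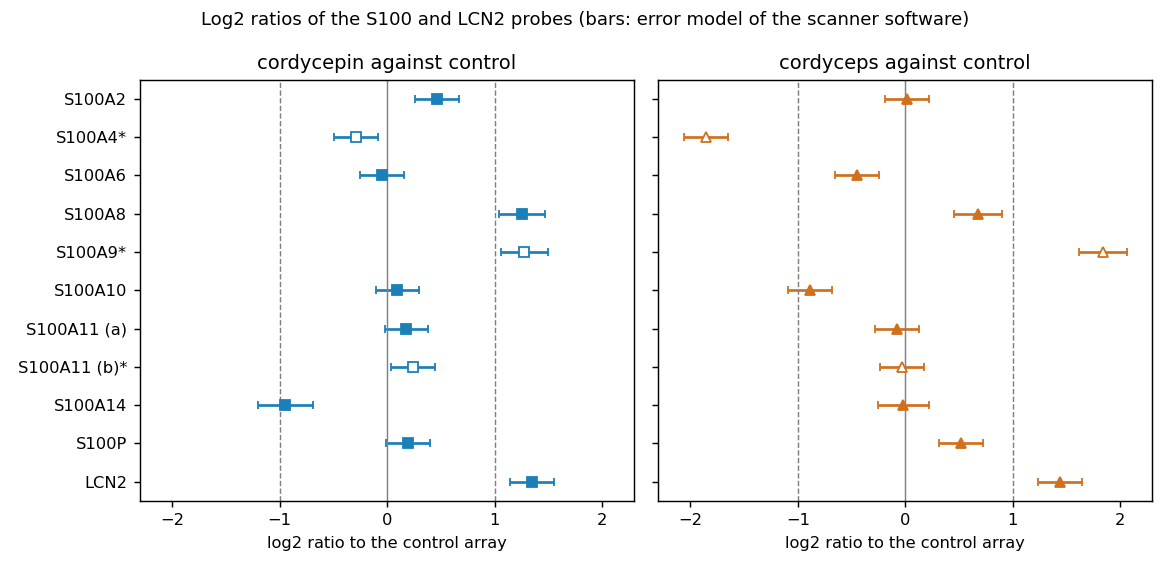
Log2 ratio of each probe to the control array for cordycepin (left) and cordyceps (right), with bars for the combined error of the scanner software's error model on 2 arrays; dashed lines mark 2-fold, and open symbols with an asterisk are probes in the marked corner. LCN2 (1.35 and 1.44) and S100A9 (1.28 and 1.84) lie beyond 2-fold in both panels, S100A8 (1.26) in the left one and S100A4 (-1.85) in the right one.

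Read side by side, the doses and materials differ, so the values describe the arrays and do not rank the agents. Set directly against each other, the cordyceps array was lower than the cordycepin array for S100A4 (log2 ratio -1.56 ± 0.20), S100A10 (-0.98 ± 0.20) and S100A8 (-0.58 ± 0.22), and higher for S100A14 (0.93 ± 0.27) and S100A9 (0.56 ± 0.21). The S100A9 and S100A4 probes lie in the corner, and relative to the median of their neighbours these ratios were 0.25 for S100A9, within the single-probe spread, and -1.72 for S100A4. The single-probe spread for this pair of arrays was 0.28, and median scaling moved all these ratios by 0.53. Of the 11 probes, 5 were within the single-probe spread of 0 with cordycepin and 4 with cordyceps.

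**Figure D4:**
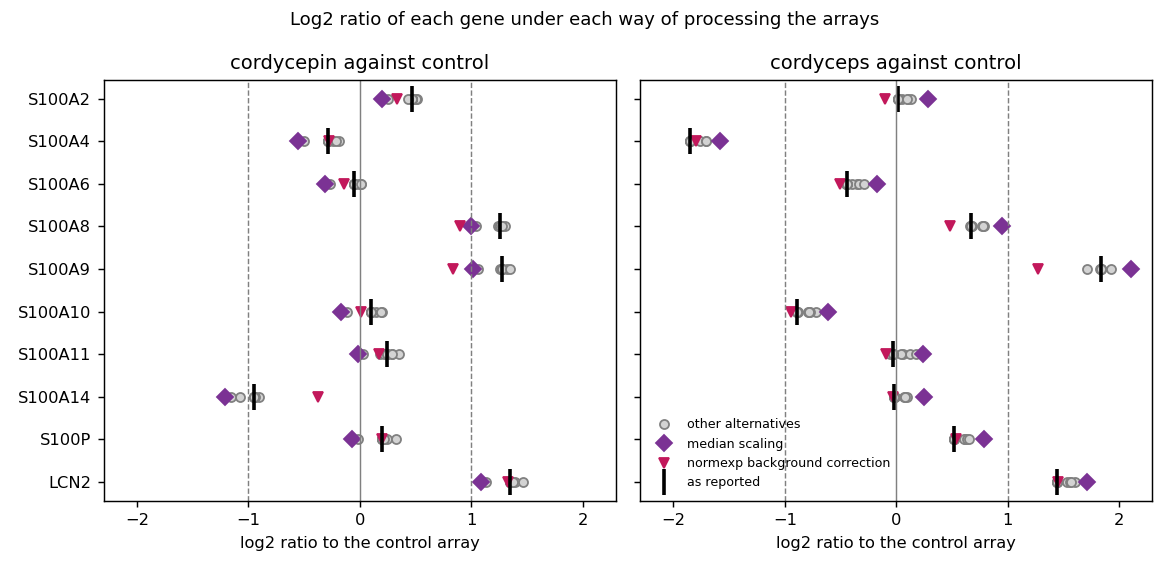
Log2 ratio to the control array of the 10 genes as reported (black bar), under median scaling (diamond), after normexp background correction (triangle) and under the other alternatives (grey circles). LCN2 stays beyond the dashed 2-fold line in both panels, whereas S100A8, S100A9 and S100A14 lie on either side of it with cordycepin, depending on the processing.

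The genes whose pair of log2 ratios was nearest to that of a member were sought among 11246 named genes detected on all arrays and outside the corner, with the straight-line distance in log2 units over the 2 comparisons. For LCN2 these were TNFAIP3 (distance 0.085, with log2 ratios of 1.43 and 1.46), TMEM92-AS1 (0.096) and PPIL6 (0.11). For S100A8 they were NIM1K (0.025), LRRCC1 (0.031) and MARCHF3 (0.058). For S100A9 they were EREG (0.11), ULBP1 (0.15) and ASB2 (0.15), and for S100A4 they were H1-5 (0.18), LINC01474 (0.21) and FAM224A (0.25). The S100A9 and S100A4 probes themselves lie in the corner, so the cordyceps ratios used to find their nearest genes carry the doubt given above. A pair of ratios from 3 arrays place many genes close together, so nearness here is a description.

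Among 11 other S100 genes, 5 were well above background on the control and cordycepin arrays and 6 on the cordyceps array. With cordycepin, S100A5 was the 1 gene of this list past 2-fold (signals 96.1, 183 and 66.1, log2 ratios 1.14 and -0.54). S100A16 read -0.05 and -0.22, S100A13 -0.08 and -0.70 and S100A3 0.77 and -0.52, the last 2 with probes in the corner. With cordyceps, S100A12, which like S100A8 is a neutrophil protein, was at least 2.13-fold higher, with signals of 10.8, 4.41 and 39.7 of which only the last was well above background, and its other probe was not on any array. S100G went from 4.82 and 5.49 to 932 on the cordyceps array, a bound of log2 5.64, from a probe in the corner. S100A1, S100A7A, S100B and S100Z were not well above background on any array. Of 7 epidermal genes whose proteins carry an S100 domain, TCHH (trichohyalin) was 5.64-fold higher with cordycepin and 2.91-fold higher with cordyceps (signals 28.2, 137 and 82.1). These TCHH values come from 1 of its 2 probes, the other not being well above background on any array. FLG (filaggrin) was at least 4.66-fold lower with cordycepin and at least 3.42-fold lower with cordyceps, from 1 corner probe of its 3 that was well above background on the control array alone, while the other 2 were not on any array.

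Of 14 annexins, other binding partners and receptors of S100 proteins, 12 were measured and 0 passed 2-fold in either direction in either comparison. Their median log2 ratio was 0.05 with cordycepin and -0.33 with cordyceps, against -0.05 and -0.11 over all named genes measured. Median scaling moved every ratio by -0.26 with cordycepin and by 0.27 with cordyceps, so medians of this size depend on the scaling. AGER, the receptor for S100A8, S100A9 and S100P, read 268, 350 and 494 from a corner probe (log2 ratios 0.60 and 0.88). The other AGER probes, outside the corner, were not well above background on any array, and neither were TLR4 and CD36. Among the 4 receptors and partners of lipocalin-2, BDH2, an enzyme credited with making a mammalian siderophore, was at least 2.17-fold lower with cordycepin, from 57.3 on the control array. MMP9, the protease that lipocalin-2 binds, had log2 ratios of 0.74 and 0.76, SLC22A17, a lipocalin-2 receptor, 0.29 and 0.36, and LRP2 (megalin) -0.08 and -0.91.

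Of 18 other lipocalin genes, 17 had a probe. With cordycepin 3 were at least 2-fold higher (LCN15, 1.16 on the log2 scale, ORM1, 1.01, and ORM2, 1.04) and 2 lower (PTGDS, -1.28, and APOM, -1.07). A second APOM probe, in the corner, gave -1.19 with cordycepin and 1.65 with cordyceps, against -0.51 for the first. With cordyceps 4 were higher and 0 lower, the lowest being AMBP at -0.84. ORM2, an acute-phase glycoprotein gene, read 205, 364 and 791, which is 2.05-fold and 3.85-fold. Its near-identical neighbour ORM1, read by a corner probe, gave 2.01-fold and 3.59-fold, and whether each probe reads 1 of the 2 genes was not tested. C8G was higher with cordyceps by 1.28 on the log2 scale, and LCN12 by 1.37, from a corner probe.

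Of 12 iron-handling genes, all measured, 2 were lower with cordycepin (HMOX1, heme oxygenase, and CP, ceruloplasmin, both -1.05) and 0 passed 2-fold with cordyceps. The CP probe lies in the corner, and its second probe, outside it, gave -0.96, short of 2-fold. With cordyceps the list ran from -0.87 for SLC40A1, the iron exporter ferroportin, to 0.42 for SLC11A2, an iron importer, which was also the highest with cordycepin (0.41). Ferritin heavy chain (FTH1) read 0.15 and -0.00. Of 13 other antimicrobial genes of epithelia, 12 had a probe, and 2 were higher with cordycepin. PI3, the protease inhibitor elafin, read 317, 2484 and 347, which is 9.10-fold with cordycepin and 0.13 on the log2 scale with cordyceps. DEFB4A, beta-defensin 2, read 48.1, 250 and 72.4, which is 6.02-fold with cordycepin and 0.59 on the log2 scale with cordyceps. The cordycepin array was the high one for both genes. DEFB1, beta-defensin 1, read 22403, 28953 and 11412, with log2 ratios of 0.58 and -0.97, the latter the lowest of the list with cordyceps. SLPI had log2 ratios of 0.77 and 0.30, and DMBT1 was 2.11 higher on the log2 scale with cordyceps, from a corner probe, while its other probe was not well above background on any array. Of 7 transcription factors known to act on S100A8, S100A9 or LCN2, 0 passed 2-fold. NFKBIZ, a cofactor of NF-kappaB needed for LCN2 induction, read 0.47 and 0.93, NFKB1 0.05 and 0.73, CEBPB 0.31 and 0.23, CEBPD -0.26 and -0.39 and CEBPA -0.44 and 0.04.

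**Figure D5:**
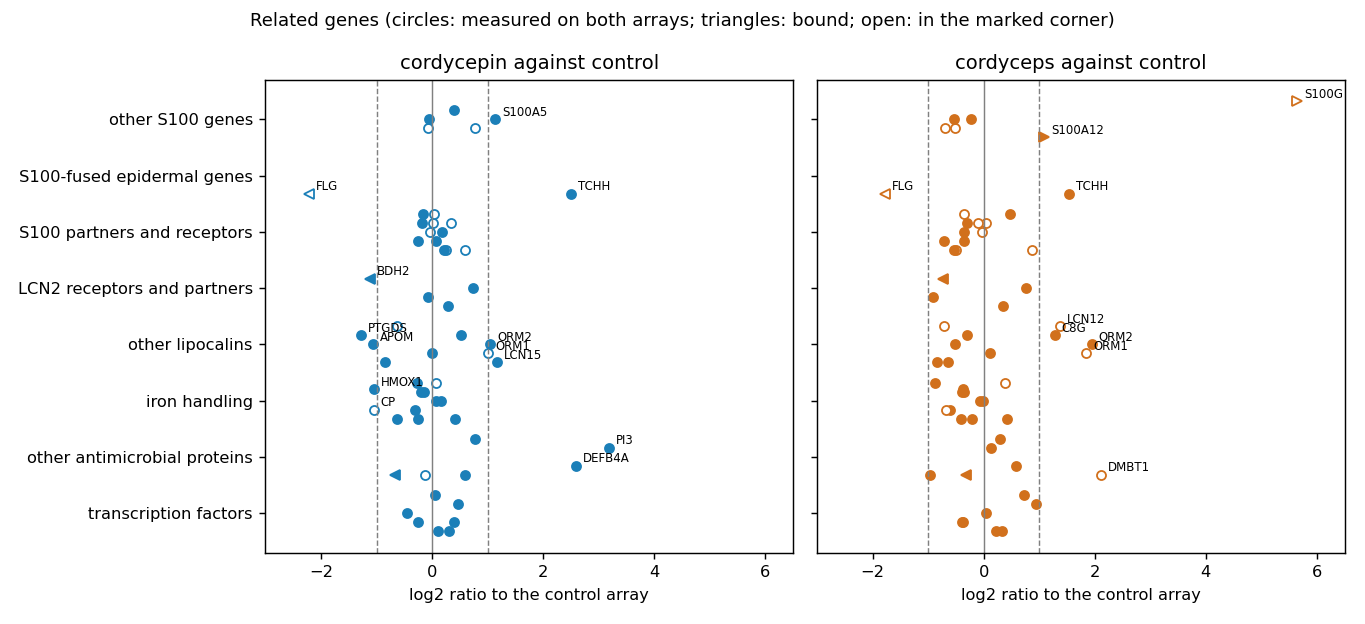
Log2 ratio to the control array of genes related to the S100 proteins and lipocalin-2, one row per list with points spread vertically for legibility; circles were measured on both arrays, triangles are bounds, open symbols lie in the marked corner, and genes beyond the dashed 2-fold lines are named. PI3 (3.19) and DEFB4A (2.59) lie far right with cordycepin, and the farthest point with cordyceps is the corner probe of S100G (5.64).

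The cell type was checked with marker lists. All 8 epithelial and A549 markers were well above background on all arrays, and KRT18, a keratin of simple epithelia, read 240731, 264983 and 175618. Of these 8, EPCAM was 2.85-fold lower with cordycepin and KRT19 2.37-fold lower with cordyceps. Among the brightest probes of the list, the highest log2 ratios were 0.62 for KRT8 with cordycepin and 0.04 for KRT7 with cordyceps. The 3 KRT8 probes disagreed. They gave 0.62, 1.03 and 0.43 with cordycepin, and -0.71, 0.43 and 0.34 with cordyceps. Because S100A8 and S100A9 are best known from myeloid cells, leukocyte markers are given beside them. Of 10 such genes 8 had a probe, 6 were well above background on the control array and 5 on each treated array, and 0 passed 2-fold. Their summed signal was 3800 in the control, 1982 with cordycepin and 2504 with cordyceps, most of it CD14 (3387, 1559 and 2183), so that the sum mainly follows that gene. With cordycepin SPI1 (log2 ratio 0.63) and ITGAM (0.58) were above 0, and PTPRC gave -0.26 and 0.62 from its 2 measured probes. With cordyceps SPI1 read -0.54, ITGAM -0.38 and PTPRC -0.45 and 0.21, and CSF3R, at -0.34 from a corner probe, was the highest of the brightest probes of the list. The labels name A549 cells and no leukocytes in these cultures, and a part of leukocytes in the S100A8 and S100A9 values was not tested. MPO and CD3E were not well above background on any array. Of 7 keratinocyte markers, KRT10 was well above background on all arrays, KRT14 on the cordycepin array (46.4, at least 2.89-fold higher, from 1 of its 2 probes) and IVL on the cordyceps array (293, from a corner probe). In a bulk sample a change in the share of cells that express a gene and a change in RNA per cell cannot be told apart.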

How the data were processed

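According to the labels, total RNA of 3 A549 conditions was Cy3-labelled and hybridized to Agilent one-colour whole-genome arrays, 1 per condition. The authors deposited the scanner output of Agilent Feature Extraction 11.5.1.1, whose processed intensity values were background-subtracted within each array and not scaled between arrays, and a value table of unscaled intensity values. The methods describe labelling of the cordycepin sample with Cy5 and of the control with Cy3, but the labels and files hold 1 Cy3 channel per condition, so ratios were taken between arrays. The methods name GeneSpring for fold changes and give no scaling in the sources used here.

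Control spots and outlying spots were left out (106, 80 and 63 of 60901 spots), repeated spots were averaged as log2 values, and each array's 75th percentile of non-control probes was subtracted. Detection of a probe needed 50% or more of its spots well above background and was met by 28494 (control), 27666 (cordycepin) and 24505 (cordyceps) of 58201 probes. A total of 31104 probes had a RefSeq name. The brightest probe stood for a gene. With 1 array per condition no test was run, and precision is limited by that number. A difference was counted at 2-fold, as a bound where 1 array detected the probe. For a bound, the other array entered with its own signal or with its lowest signal well above background, whichever was higher. The rule for genes named took the members, list genes past 2-fold or at the ends of their list, and the 3 nearest genes for each member past 2-fold. Other list genes were named for their known role after their values were seen. The members and lists were chosen with earlier results of these data known. The alternatives were median scaling, quantile normalization, the percentile over probes detected on every array, no scaling, normexp (limma 3.58.1, R 4.3.3, offset 50, on the median spot signal and local background), the deposited value table, outlying spots kept, the corner left out, the median over a gene's probes, other detection rules, and 1.5-fold and 3-fold thresholds. The calling step was run on simulated arrays. Their changes were larger than those of the members, their noise was below the single-probe spread, and the changed probes were brighter than those of S100A8, S100A9 and S100A14. That run therefore says little about weak signals or changes near 2-fold. Python 3.11.15, numpy 2.4.6 and pandas 2.3.3 were used.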

Additional observations from a re-analysis of the deposited data

How the results depend on the processing

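The count of 3 genes at least 2-fold higher with cordycepin was 1 after normexp background correction, which left LCN2, and 0 at a 3-fold threshold. The count of 0 genes lower with cordycepin became 1, S100A14, under median scaling, quantile normalization, no scaling and a 1.5-fold threshold. With cordyceps, the count of 2 higher genes fell to 1 when the corner was left out, which removes S100A9, and to 1 at 3-fold, and the count of 1 lower gene became 0 without the corner, which removes S100A4, and 2 at 1.5-fold, which adds S100A10. The other alternatives left each count within 1.5 times of the value given. Subtracting the median log2 ratio of neighbouring probes was chosen after seeing the data, and it left the counts at 3, 0, 2 and 1. No gene counted as higher or lower changed sign under any alternative. The normexp run added an offset of 50 to every signal, beside control signals of 114 for S100A8, 92.1 for S100A9 and 106 for S100A14. Their cordycepin log2 ratios went from 1.26 to 0.90, from 1.28 to 0.84 and from -0.95 to -0.37. LCN2, with a control signal of 9568, went from 1.35 to 1.33. The offset was not varied, so its share in the shift was not tested apart from the background correction. No paired analysis was possible because each group has 1 array, and for the same reason no array could be left out. The weaker signals (S100A8, S100A9 and S100A14) had model errors of 0.21 to 0.27 on the log2 scale, against 0.20 to 0.21 for the other probes.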
